A study of Mus musculus with 6 samples.

Results

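Lmod2, Tpm2, Flnc, Cavin4, Asb15 and Ppp1r3a, 6 genes of the muscle sarcomere and the machinery around it, were described in 6 mouse RNA-seq libraries. They were chosen by name from earlier results on these same libraries, as rows of the deposited count files whose name and position match, and because most of them were abundant in some libraries and nearly without counts in others. Their levels are therefore given as a description. Rows with 90% or more of their bases inside GENCODE M21 exons (GRCm38) of the gene in their name were called in register. All 6 genes met this, among 1740 such rows of 53546 in all, whereas 49890 rows had no base on exons of the gene that names them.

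Of the libraries, 3 were labelled intervertebral disc degeneration (degeneration 1 to 3) and 3 wild type (wild type 1 to 3). All came from C57BL/6 mice, with the intervertebral disc as labelled source, and the series' description gives their age as 21 days while naming the retina as the source. How degeneration was brought about, and whether each library is a separate animal, is not stated in the labels. The p-values below therefore cover the variation among these 6 libraries alone, which may be technical. Counts per library ranged from 3119215 to 3451759 in degeneration and from 3317474 to 4009562 in wild type. Values are given as CPM, the counts of a gene divided by the total of its library and scaled alike in all libraries. The floor, below which a value is not told from 0, was set at 3 counts, which is 0.869 to 0.962 CPM in degeneration and 0.748 to 0.904 CPM in wild type. Floors and intervals cover counting error only.

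Degeneration 2 and 3 stood apart from the other libraries, degeneration 1 among them. The 6 located heart muscle markers summed to 27987, 41.4 and 58.3 CPM in degeneration 1 to 3 and to 24007, 24399 and 26399 CPM in wild type 1 to 3. For the 6 located kidney tubule markers the sums were 49.1, 10374 and 8252 CPM in degeneration 1 to 3 and 38.2, 33.3 and 45.2 CPM in wild type 1 to 3. Of 15 disc and cartilage markers 5 were located, and they summed to 11.02, 11.88 and 13.1 CPM in degeneration and to 21.2, 17.9 and 16.6 CPM in wild type. Acan, which encodes the main proteoglycan of disc and cartilage, had no count in degeneration and at most 0.499 CPM in wild type, so it was under the floor in every library, on rows that cover 1158 of its 7469 exon bases. Cnmd and Chad, markers of cartilage, were low but counted, at 2.52 to 7.69 CPM in degeneration and 1.40 to 7.54 CPM in wild type. Of 17 skeletal muscle markers 7 were located, and they summed to 123, 23.8 and 21.2 CPM in degeneration and to 92.0, 116 and 137 CPM in wild type. Of these, Tnnt1 and Mybpc2 were counted in degeneration 1 and wild type, at 77.5 and 37.2 CPM in degeneration 1, and Myh2 and Actn3 had no more than 3 counts in any library. What part the composition of the libraries has in the levels below was not tested, and in bulk RNA fewer cells of a type and less RNA per cell cannot be told apart.

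In striated muscle, thin filaments of actin are anchored in the Z-disc and slide past thick filaments of myosin. Tropomyosin lies along the actin filament, and leiomodin promotes actin assembly at its pointed end, the end that tropomodulin caps. Filamin C crosslinks actin at the Z-disc and the cell membrane, cavin-4 is the muscle member of the coat proteins of caveolae, Asb15 is a member of the ankyrin repeat and SOCS box family whose proteins recruit targets to ubiquitin ligases, and Ppp1r3a brings protein phosphatase 1 to glycogen.

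The genes lie on 2 chromosomes. On chromosome 6 of GRCm38, Ppp1r3a spans 14713977 to 14755274 on the minus strand, Asb15 spans 24528144 to 24573164, Lmod2 spans 24597762 to 24605414 and Flnc spans 29433256 to 29461883, these 3 on the plus strand. On chromosome 4, Tpm2 spans 43514711 to 43523765 on the minus strand and Cavin4 spans 48663514 to 48673502 on the plus strand. Exon edges of the rows for Tpm2 and Cavin4 matched GENCODE at all 18 and 4 edges. For the genes of chromosome 6 all edges matched after a shift of 1 base (6 for Lmod2, 96 for Flnc, 22 for Asb15 and 8 for Ppp1r3a), so that 99.5% to 99.9% of these rows lay on their own exons. No base of the 6 rows lay on an exon of another gene.

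The 250 bases before the RefSeq start of 4 of the genes (GRCm38.p6) are shown. They were picked because Lmod2, Cavin4 and Ppp1r3a had nearly no counts in degeneration 2 and 3, where Tpm2 still had 70.7 and 72.1 CPM. Capitals mark matches on either strand to the E-box CANNTG, the M-CAT motif CATTCC, the GATA motif GATAA, the TATA box TATAAA, the MEF2 site and the CArG box. The windows are at chr6:24597521-24597770 (plus strand) for Lmod2, chr4:48663264-48663513 (plus) for Cavin4, chr6:14755275-14755524 (minus) for Ppp1r3a and chr4:43523555-43523804 (minus) for Tpm2. The window of Lmod2 runs a few bases into the gene as GENCODE annotates it, since its start differs from that of RefSeq. For the same reason most of the window of Tpm2 lies inside the annotated gene.

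Lmod2: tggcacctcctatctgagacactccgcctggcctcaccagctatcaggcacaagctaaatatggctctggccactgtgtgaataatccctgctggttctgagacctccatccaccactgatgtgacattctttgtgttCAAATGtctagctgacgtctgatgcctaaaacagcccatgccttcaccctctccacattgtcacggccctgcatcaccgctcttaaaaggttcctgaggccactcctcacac

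Cavin4: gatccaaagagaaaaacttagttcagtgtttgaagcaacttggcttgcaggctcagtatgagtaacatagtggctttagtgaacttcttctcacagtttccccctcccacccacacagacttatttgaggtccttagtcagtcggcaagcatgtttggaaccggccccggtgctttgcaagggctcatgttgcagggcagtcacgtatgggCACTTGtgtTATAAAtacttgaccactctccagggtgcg

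Ppp1r3a: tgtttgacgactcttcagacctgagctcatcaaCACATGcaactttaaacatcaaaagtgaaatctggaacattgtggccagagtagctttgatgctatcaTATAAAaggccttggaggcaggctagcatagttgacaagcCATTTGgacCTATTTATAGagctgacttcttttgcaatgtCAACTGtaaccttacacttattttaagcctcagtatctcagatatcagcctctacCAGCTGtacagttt

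Tpm2: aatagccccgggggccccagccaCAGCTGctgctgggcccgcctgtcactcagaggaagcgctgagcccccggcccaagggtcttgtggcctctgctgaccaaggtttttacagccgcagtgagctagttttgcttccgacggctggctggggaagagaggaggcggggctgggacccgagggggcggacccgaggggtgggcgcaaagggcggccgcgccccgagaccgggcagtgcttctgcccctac

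Ppp1r3a held 4 E-boxes, 2 TATA boxes and 1 MEF2 site, which begins 100 bases before the start and overlaps the TATA box on the reverse strand. In Cavin4 the TATA box begins 30 bases before the start and the E-box 39 bases before it. Lmod2 and Tpm2 held 1 E-box each and no other match. Of the windows not shown, Asb15 held 3 E-boxes and 1 TATA box, and Flnc held 1 M-CAT motif in the second of its 2 annotated windows. Of 32851 mouse windows of this length, 66.2% held an E-box, 12.6% an M-CAT motif, 22.6% a GATA motif, 12.4% a TATA box, 2.92% a MEF2 site and 1.47% a CArG box. GC content was 52.4% in Lmod2, 48.8% in Cavin4, 40.4% in Ppp1r3a, 44.0% in Asb15 and 69.6% in Tpm2, against a median of 52.4% over all windows. The 2 windows of Flnc had 64% and 77.2%. These matches are letters in a window and no more.

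Lmod2, which encodes leiomodin 2, a leiomodin of heart and skeletal muscle, had 2110.1, 0.579 and 0 CPM in degeneration 1 to 3. Wild type 1 to 3 had 1656, 1292 and 2005 CPM. Degeneration 1 was above all wild type libraries, and degeneration 2 and 3 were under the floor, with 2 and 0 counts. The exact Poisson 95% interval reached 2.09 CPM in degeneration 2 and 1.18 CPM in degeneration 3.

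Tpm2, which encodes beta-tropomyosin, a form used by skeletal and smooth muscle, had 82.8, 70.7 and 72.1 CPM in degeneration 1 to 3, against 118, 137 and 88.3 CPM in wild type 1 to 3. It was the 1 gene of the 6 with at least 70.7 CPM in every library. Its groups alone did not overlap, with every degeneration library lower. Of the 14967 rows tested, 8.65% had every degeneration library lower than every wild type library. The gap between the groups was small. Degeneration 1 at 82.8 CPM (exact Poisson 95% interval 73.1 to 93.4) lay beside wild type 3 at 88.3 CPM (78.5 to 99.0), and after TMM scaling their values were 93.7 and 95.2 CPM. Degeneration 2 and 3 moved farther from wild type with TMM scaling, to 59.9 and 60.3 CPM, against 123, 152 and 95.2 CPM in wild type 1 to 3.

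Flnc, filamin C, had 1592, 11.6 and 11.9 CPM in degeneration 1 to 3 and 2493, 3242 and 1449 CPM in wild type 1 to 3. In degeneration 2 and 3 it kept 0.484% and 0.495% of the wild type mean, on 40 and 37 counts, well above the floor. Its spread within wild type was the widest of the 6, with the highest library 2.24 times the lowest.

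Cavin4, the muscle-restricted cavin, had 286 CPM in degeneration 1, no count in degeneration 2 and 0.321 CPM in degeneration 3, against 231, 244 and 265 CPM in wild type 1 to 3. Degeneration 3 rests on 1 count. Its spread within wild type was the narrowest of the 6, with a coefficient of variation of 6.90%.

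For Asb15 the values were 396, 34.8 and 40.4 CPM in degeneration 1 to 3 and 356, 275 and 383 CPM in wild type 1 to 3. Unlike Lmod2, its neighbour on chromosome 6, it was clearly counted in degeneration 2 and 3, with 120 and 126 counts, or 10.3% and 11.95% of the wild type mean. Degeneration 1 was again the highest library.

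Ppp1r3a, the glycogen-targeting subunit of muscle, had 979, 0.290 and 0.641 CPM in degeneration 1 to 3 and 1115, 767 and 739 CPM in wild type 1 to 3. Degeneration 2 and 3 held 1 and 2 counts, under the floor. Degeneration 1 lay within the range of wild type.

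**Figure D1:**
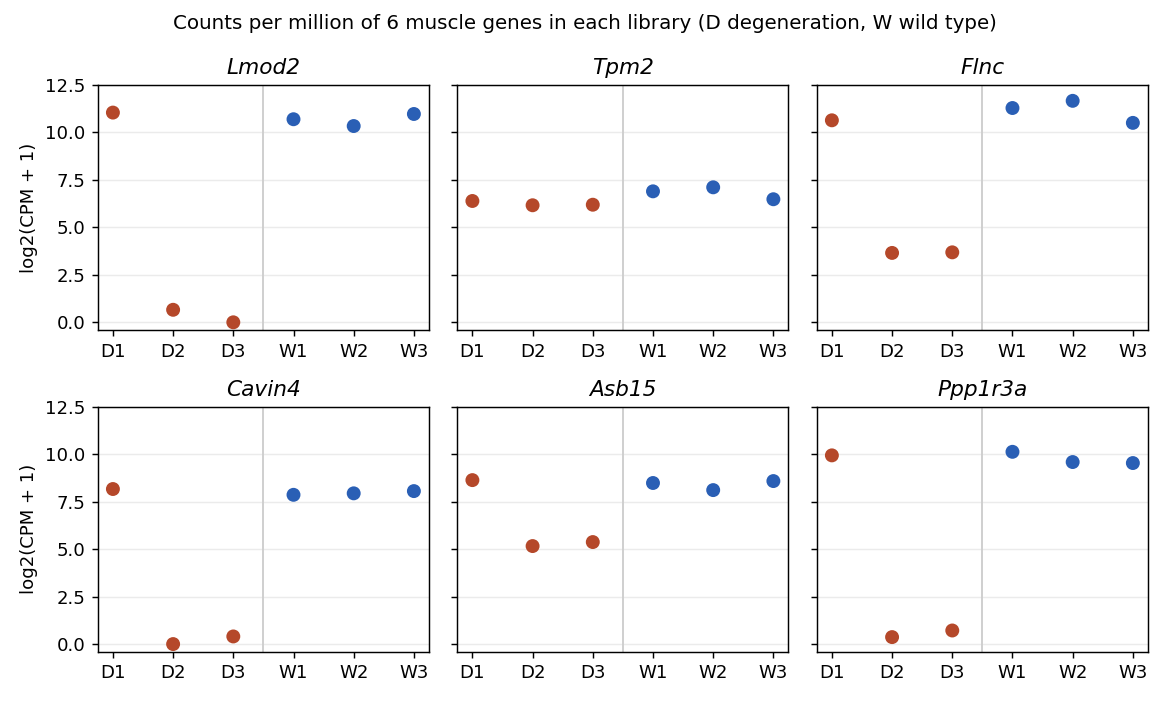
Level of each of the 6 genes in every library as log2(CPM + 1) on the vertical axis, with degeneration 1 to 3 (D1 to D3, red) left of wild type 1 to 3 (W1 to W3, blue); each point is 1 library. Lmod2, Cavin4 and Ppp1r3a are at or near 0 in D2 and D3, Flnc and Asb15 are low there with 11.6 to 40.4 CPM, and Tpm2 stays between 70.7 and 137 CPM in all libraries.

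The genes thus fell into 3 levels in degeneration 2 and 3: under the floor (Lmod2, Cavin4, Ppp1r3a), low but counted (Flnc, Asb15), and partly kept (Tpm2). In CPM before TMM scaling Tpm2 had 61.7% and 63.0% of the wild type mean. Because a ratio of counts within a library does not depend on its scaling, Flnc was also set against Tpm2. There were 19.2, 0.164 and 0.164 Flnc counts per Tpm2 count in degeneration 1 to 3, and 21.1, 23.7 and 16.4 in wild type 1 to 3. The ratio in degeneration 1 lay within the wild type range, and those of degeneration 2 and 3 were far below it.

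Per kb of row length, the wild type level was highest for Lmod2, at 835 ± 181 CPM per kb (SD, n = 3, as for the next values). Flnc followed with 255 ± 95.7 CPM per kb. Ppp1r3a at 125 ± 30.0 and Cavin4 at 120 ± 8.29 CPM per kb did not differ beyond their spread, and the order of this pair changed between libraries. The lowest Flnc value, 154 CPM per kb in wild type 3, was also within the range of Ppp1r3a, which reached 160.0 CPM per kb in wild type 1. Asb15 at 75.1 ± 12.49 and Tpm2 at 39.4 ± 8.44 CPM per kb were lowest, and their ranges did not overlap. Degeneration 1 had the same order at both ends, with 1068 CPM per kb for Lmod2 and 28.5 CPM per kb for Tpm2. In degeneration 2 and 3 Tpm2 was highest, at 24.3 and 24.8 CPM per kb, followed by Asb15 at 7.73 and 8.98 and Flnc at 1.23 and 1.26 CPM per kb. The other genes were under the floor there and are not ordered.

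Among degeneration 1 and the wild type libraries the genes did not vary together. Flnc and Tpm2 were both highest in wild type 2 and both lower in degeneration 1 and wild type 3 than in wild type 1 and 2. Lmod2 and Asb15 were highest in degeneration 1 and wild type 3 and lowest in wild type 2. Ppp1r3a was highest in wild type 1, and Cavin4 varied least. Per Lmod2 count there were 0.754 Flnc counts in degeneration 1 and 1.51, 2.51 and 0.723 in wild type 1 to 3. For Tpm2 the same ratio was 0.0392 in degeneration 1 and 0.0714, 0.106 and 0.0440 in wild type 1 to 3. Cavin4 gave 0.135 in degeneration 1 and 0.140, 0.189 and 0.132 in wild type 1 to 3. Asb15 gave 0.188 in degeneration 1 and 0.215, 0.213 and 0.191 in wild type. These ratios were not tested, since degeneration 1 is a single library.

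**Figure D2:**
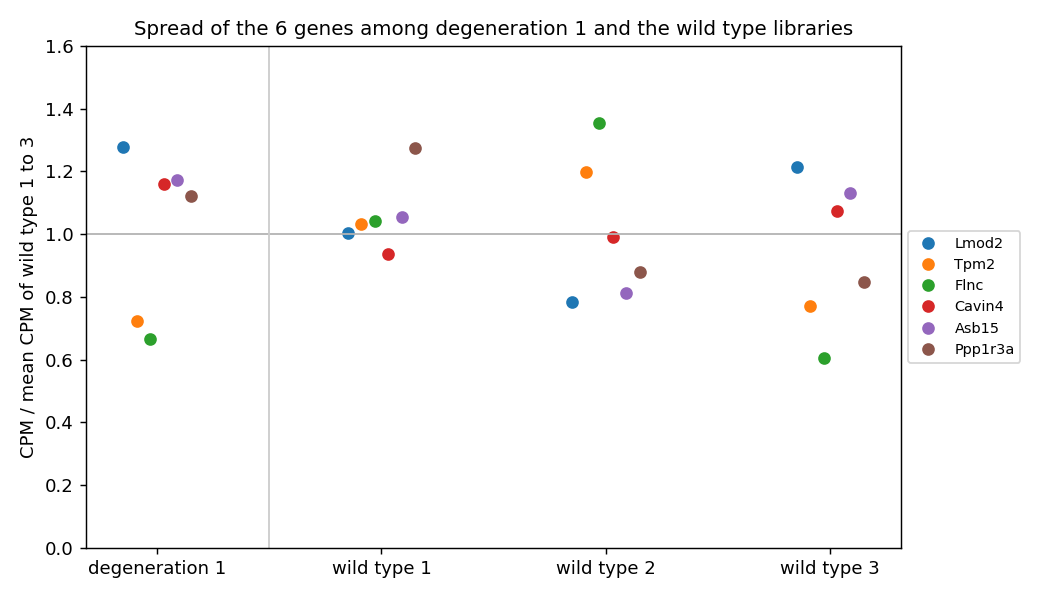
CPM of each gene divided by its own mean over wild type 1 to 3 (vertical axis, no unit), in degeneration 1 (left) and the wild type libraries; each point is 1 library and each colour 1 gene, shifted sideways for legibility. Flnc spans the widest range within wild type and Cavin4 the narrowest, and in degeneration 1 Tpm2 and Flnc lie below 1 while the other 4 genes lie above it.

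The labels set degenerated against wild type discs. With all 6 libraries, edgeR's quasi-likelihood test called 0 of the 6 genes at an adjusted p under 0.05, and 0% of all 14967 rows tested (2598 rows at an unadjusted p under 0.05, Tpm2 among them). DESeq2 called 0 of the 6, with no adjusted p for Cavin4, Asb15 and Ppp1r3a, and 2.71% of rows. The fitted log2 fold changes, degeneration over wild type, were -0.79 ± 0.27 for Tpm2, -1.09 ± 1.06 for Asb15, -1.16 ± 2.51 for Lmod2, -1.30 ± 2.08 for Cavin4, -1.34 ± 2.29 for Ppp1r3a and -2.09 ± 1.89 for Flnc (edgeR, SE). The gene with the smallest SE by far was Tpm2, whose degeneration libraries resembled each other. Since the genes were chosen on these libraries, nothing is read from these counts.

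Without degeneration 1 all 6 genes passed, lower in degeneration, as did 24.5% of rows in that direction. Most of the genes were chosen for high counts in some libraries and nearly none in others, and this fit compares just those libraries. Their passing is thus no evidence of a difference between the groups. Tpm2 then had a log2 fold change of -1.11 ± 0.19, Asb15 of -3.59 ± 0.19 and Flnc of -8.10 ± 0.41 (edgeR, SE). For Lmod2, Cavin4 and Ppp1r3a no fold change is given, since it rests on 0 to 2 counts per degeneration library. With degeneration 2 and 3 left out instead, degeneration 1 alone against wild type gave 0 of the 6 genes and 0.0125% of rows. Lmod2 then stood at a log2 fold change of 0.44 ± 0.23 (adjusted p = 0.81) and Flnc at -0.52 ± 0.37 (adjusted p = 0.82), the lone library being assumed to vary as the wild type libraries do. The 2 rows that passed carry the names Txnip and Gm16538.

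**Figure D3:**
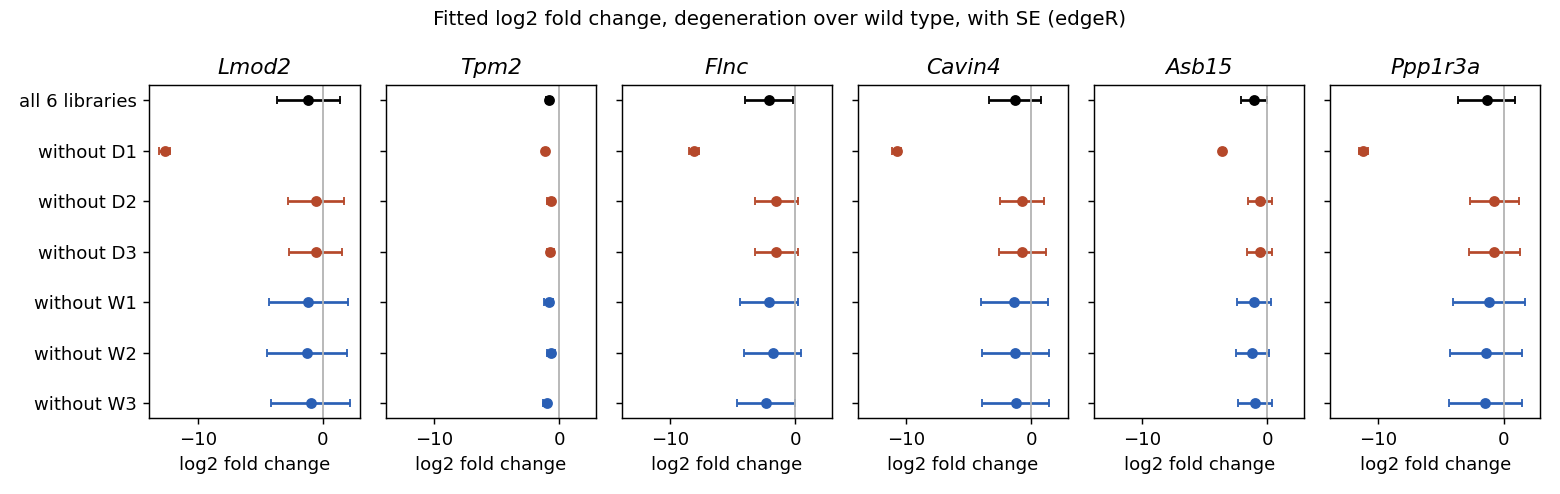
Fitted log2 fold change of each gene, degeneration over wild type (horizontal axis; bars are SE), with all 6 libraries (black) and without each degeneration (D, red) or wild type (W, blue) library in turn. Leaving out D1 moves every gene to the left and shrinks its SE, from -2.09 ± 1.89 to -8.10 ± 0.41 for Flnc; for Lmod2, Cavin4 and Ppp1r3a the point without D1 depends on how counts of 0 to 2 are treated.

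Other genes of the same structures were followed by position. A locus is a GRCm38 gene on which 1 or more rows fall, whatever their name, and the rows may cover little of it, so that values are compared between libraries and not between loci. No locus passed with all 6 libraries (edgeR, 0% of 5637 loci; 1106 at an unadjusted p under 0.05; 4.77% called by DESeq2, none of them in the 6 pathway lists below). DESeq2 gave no p-value for some loci of the pathway lists, Myh6, Fhl2, Nebl, Tmod1 and Pygm among them, so it could not call these. Without degeneration 1, 26.1% of loci were lower and 26.9% higher in degeneration. The list counts below leave out the 6 genes and are from lists written with earlier results of these libraries known, so they are no independent evidence of direction.

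Of 24 other thin filament genes 8 were located and 7 tested, of which 6 were lower and 0 higher without degeneration 1. Their median log2 fold change with all 6 libraries was -1.18, against 0.0018 over all loci. Nrap, a protein of nascent sarcomeres, had 224, 17.7 and 16.0 CPM in degeneration 1 to 3 and 257 to 271 CPM in wild type. Nebl, the nebulin-like protein of heart Z-discs, had 430.1, 10.1 and 12.8 CPM in degeneration and 315 to 384 CPM in wild type. Tmod1, the tropomodulin that caps the end on which leiomodin acts and the 1 gene of this list in register on its own exons, had 549, 7.82 and 10.3 CPM in degeneration 1 to 3 and 508 to 558 CPM in wild type. Tmod1 was singled out after its values were seen, and so was Neb, which ran the other way. Neb had 10.1, 34.5 and 38.8 CPM in degeneration 1 to 3 and 16.0 to 24.9 CPM in wild type. It was the tested gene of this list that did not pass without degeneration 1. Tpm4, a cytoskeletal tropomyosin and the located paralog of Tpm2, resembled Tpm2 with 100.4, 75.03 and 75.3 CPM in degeneration against 124 to 145 CPM in wild type. Both tropomyosins located were thus well above the floor in every library.

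Of 31 other Z-disc genes 8 were located and 6 tested, and all 6 were lower without degeneration 1; their median log2 fold change with 6 libraries was -1.23. Fhl2, a LIM protein that binds titin, had 1342, 80.8 and 85.9 CPM in degeneration 1 to 3 and 1069 to 1345 CPM in wild type. Pdlim5, a PDZ and LIM protein of the Z-disc also made in other tissues, had 598, 191 and 179 CPM in degeneration and 491 to 735 CPM in wild type. Xirp2, an actin-binding protein of striated muscle, had 798, 0 and 0.321 CPM in degeneration and 613 to 1245 CPM in wild type. In degeneration 2 and 3 Xirp2 was thus under the floor, while Fhl2 and Pdlim5 were lower but counted. Capza2, a subunit of the protein that caps actin in the Z-disc and in other cells, singled out after its values were seen, had 325, 269 and 241 CPM in degeneration 1 to 3 and 209 to 299 CPM in wild type. It was among the 6 lower without degeneration 1, at a log2 fold change of -0.41 ± 0.15 (edgeR, SE, adjusted p = 0.044). That fit uses TMM scaling, whereas its CPM in degeneration 2 and 3 lay within the wild type range.

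Thick filament, titin and M-band genes had 11 of 25 located and 8 tested, all 8 lower without degeneration 1, with a median log2 fold change of -1.38 in 6 libraries. Myh6, the alpha myosin heavy chain of heart, had 18993, 2.03 and 1.603 CPM in degeneration and 14664 to 17448 CPM in wild type. Ttn, titin, had 9337, 22.0 and 18.9 CPM in degeneration and 9981 to 11338 CPM in wild type. Myom1, an M-band protein, had 1472, 21.4 and 23.4 CPM in degeneration and 1172 to 1295 CPM in wild type. Myh2 and Myh4, myosins of fast skeletal muscle, had at most 2.03 CPM in any library.

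Among 11 other genes of caveolae 6 were located and tested, of which 4 were lower without degeneration 1 and 2 did not pass; the median log2 fold change in 6 libraries was -0.80. Cav1, the main structural protein of caveolae in non-muscle cells, had 1008, 149 and 125 CPM in degeneration 1 to 3 and 1050 to 1565 CPM in wild type. Cavin1, which coats caveolae in all cell types that have them, had 96.0, 16.2 and 20.8 CPM in degeneration and 82.9 to 94.5 CPM in wild type. Cavin3 had 22.0, 13.6 and 10.9 CPM in degeneration and 20.8 to 29.9 CPM in wild type. Cavin4 was thus the 1 cavin of the 3 located with 0 or 1 count in degeneration 2 and 3. Pacsin2, a membrane-bending protein, had 158, 145 and 125 CPM in degeneration and 104 to 136 CPM in wild type.

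The ASB family and its ligase had 4 of 21 other members located and 3 tested with 6 libraries, with a median log2 fold change of -0.95; without degeneration 1, 4 were tested, 2 lower and 1 higher. Asb2, whose protein is known to target filamins for degradation, had 41.9, 2.32 and 0.321 CPM in degeneration and 36.8 to 41.4 CPM in wild type. Asb13 ran the other way, with 10.1, 50.4 and 47.4 CPM in degeneration 1 to 3 and 12.7 to 15.7 CPM in wild type. Asb4, the 1 gene of this list in register, singled out after its values were seen, had 29.9, 4.06 and 4.17 CPM in degeneration 1 to 3 and 19.6 to 28.3 CPM in wild type. Asb1 was near the floor, at 2.52 to 4.49 CPM in degeneration and 1.995 to 3.36 CPM in wild type.

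Of 26 other genes of glycogen metabolism and its phosphatase 13 were located and 12 tested, with 7 lower and 3 higher without degeneration 1 and a median log2 fold change of -0.32 in 6 libraries. Of the other targeting subunits located, Ppp1r3b was lower in degeneration 2 and 3, as Ppp1r3a was, and Ppp1r3e was higher. Ppp1r3b, the subunit best known from liver, had 11.02, 1.74 and 0.641 CPM in degeneration and 5.59 to 10.97 CPM in wild type. Ppp1r3e had 13.2, 48.4 and 43.6 CPM in degeneration 1 to 3 and 8.74 to 16.8 CPM in wild type. Pygm, the muscle glycogen phosphorylase that this phosphatase acts on, had 1255, 24.0 and 22.4 CPM in degeneration and 1012 to 1142 CPM in wild type. Pygb, the brain form, had 393, 46.1 and 50.01 CPM in degeneration and 301 to 332 CPM in wild type. Pygl, the liver form, singled out after its values were seen, had 2.83, 15.1 and 18.3 CPM in degeneration and 2.41 to 4.24 CPM in wild type. Phka1, a regulatory subunit of phosphorylase kinase, had 99.2, 73.6 and 94.6 CPM in degeneration and 116 to 138 CPM in wild type.

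Smooth muscle and pericyte markers are given beside Tpm2, since beta-tropomyosin is also a smooth muscle protein. Of 14, 6 were located, and they summed to 344, 360.1 and 344 CPM in degeneration 1 to 3 and to 350, 453 and 343 CPM in wild type 1 to 3. Of 5 tested, 4 were lower and 1 higher without degeneration 1, and the median log2 fold change in 6 libraries was -0.59. Myh11, the smooth muscle myosin, singled out after its values were seen, had 114, 107 and 99.4 CPM in degeneration and 99.3 to 166 CPM in wild type. Pdgfrb, a pericyte receptor, had 87.5, 80.5 and 73.7 CPM in degeneration and 93.1 to 124 CPM in wild type. Mylk, the myosin light chain kinase, had 35.6, 167 and 164 CPM in degeneration and 38.2 to 53.1 CPM in wild type, and Synpo2 had 96.3, 3.48 and 3.85 CPM in degeneration and 79.3 to 99.3 CPM in wild type. Kcnj8, of the same list and also singled out after its values were seen, had 10.1, 1.74 and 2.89 CPM in degeneration and 11.5 to 14.3 CPM in wild type. Actg2 had at most 2.24 CPM in any library. Myh11 and Pdgfrb were thus at a similar level in all libraries, as Tpm2 was. In degeneration 2 and 3 Mylk was higher, and Synpo2 and Kcnj8 were lower. The part of these markers in the level of Tpm2 was not tested.

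**Figure D4:**
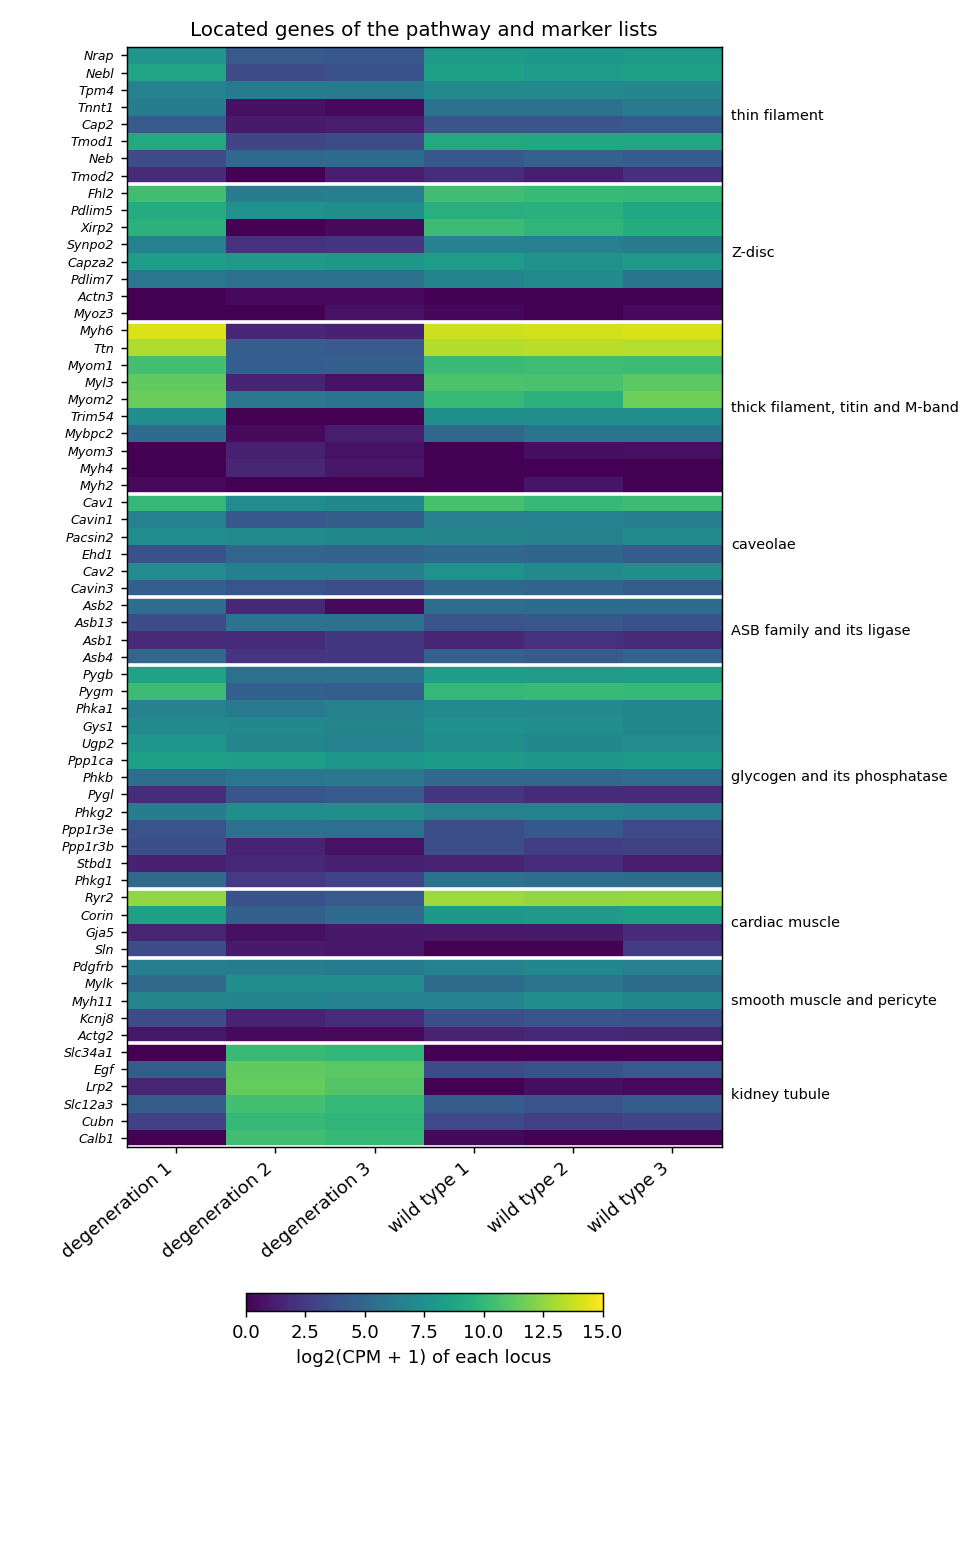
Heat map of log2(CPM + 1) (colour) of located genes of the pathway lists and of the heart, smooth muscle and kidney tubule markers (rows) in each library (columns, degeneration left of wild type); a gene in several lists is drawn once and the 6 genes are left out. Most sarcomere rows are dark in degeneration 2 and 3 and bright elsewhere, as Myh6 with 2.03 and 1.603 CPM there, kidney tubule rows are the reverse, and Tpm4, Myh11 and Pdgfrb keep a similar colour in every library.

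The genes most like each of the 6 were found by the root mean square difference of log2(CPM + 1), each profile centred on its own mean over the 6 libraries, among the 5430 loci that averaged 5 CPM or more. The profile nearest to Lmod2 was Myl3, a ventricular myosin light chain, at 0.24 log2 units, and Ckm, muscle creatine kinase, was also among its 3 nearest, at 0.63. Ppp1r3a was nearest to Xirp2 (0.24), Ryr2 (0.32) and Ckm (0.35). Cavin4 and Flnc shared Trim54, a muscle ubiquitin ligase, as nearest, at 0.24 for Cavin4 and 0.38 for Flnc. Next came Adprhl1 (0.26) and 1700119I11Rik (0.26) for Cavin4, and Dnajc5g (0.41) and Mov10l1 (0.46) for Flnc. Asb15 was nearest to Nt5c1a (0.13), Dcn (0.14) and Dcp1b (0.15), and Tpm2 to Kcnq1 (0.067), Hdac5 (0.073) and Pqlc1 (0.079). Thus the nearest loci of Lmod2 and Ppp1r3a include known muscle genes. Those of Tpm2 were counted in every library and varied far less, as Tpm2 did, which is why they were picked. Kcnq1, for one, had 63.9, 52.7 and 50.3 CPM in degeneration and 60.9 to 93.9 CPM in wild type. Among the 6 genes themselves the closest pair was Flnc and Cavin4 (0.52) and the most distant Lmod2 and Tpm2 (4.69). The 1 added to CPM bounds the fall of a gene with few counts. Cavin4, with 0 and 1 counts in degeneration 2 and 3, could thus lie close to Flnc, with 40 and 37 counts. Trim54, nearest to Flnc, had 0 CPM in these libraries.

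The rows beside the 6 genes on their chromosomes show whether low counts in degeneration 2 and 3 run across a stretch of chromosome or belong to single rows. The nearest rows in register on each side with a mean of at least 5 CPM were taken. Wasl, an actin nucleation factor 8.39 kb from Lmod2, had 206, 451 and 412 CPM in degeneration 1 to 3 and 179 to 219 CPM in wild type. On its other side, 24.6 kb away, lies Asb15, and 0.131 kb beyond that gene Ndufa5, a subunit of respiratory complex I, with 1048, 348 and 295 CPM in degeneration and 906 to 978 CPM in wild type. Both rows beside Flnc were counted in degeneration 2 and 3: Ccdc136 had 10.7, 27.8 and 23.4 CPM in degeneration and 13.7 to 16.0 CPM in wild type, and Atp6v1f, a subunit of the proton pump, had 68.0, 231 and 179 CPM in degeneration and 66.0 to 77.1 CPM in wild type. Low and high rows therefore stood side by side.

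Cavin4 and Asb15 had lower values in degeneration 2 and 3 on both sides. Tmeff1, 0.383 kb before Cavin4, had 27.7, 4.93 and 2.89 CPM in degeneration and 14.5 to 21.7 CPM in wild type, and Gm12439, 1.65 kb after it, had 15.7, 0 and 0 CPM in degeneration and 9.79 to 16.9 CPM in wild type. For Tpm2, Tln1, which encodes the integrin adaptor talin 1 and lies 7.75 kb away, had 964, 1652 and 1615 CPM in degeneration and 1050.2 to 1309 CPM in wild type. Car9, a carbonic anhydrase on its other side, had 3.15, 22.0 and 20.2 CPM in degeneration and 3.01 to 11.2 CPM in wild type. Around Ppp1r3a the rows were farther off. Foxp2, 146 kb away, had 43.8, 7.53 and 6.41 CPM in degeneration and 33.3 to 45.4 CPM in wild type, and 1110019D14Rik, at 670 kb, had 26.1, 49.0 and 57.1 CPM in degeneration and 19.0 to 20.9 CPM in wild type.

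**Figure D5:**
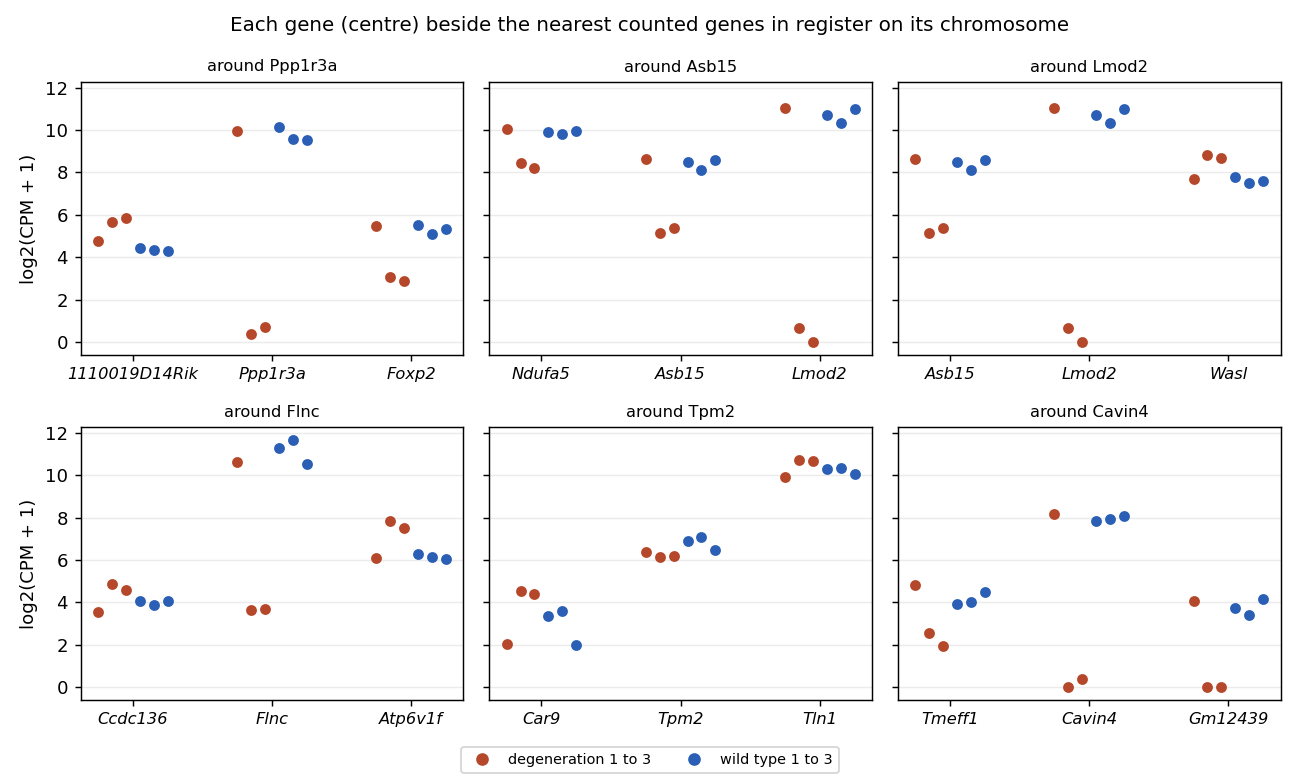
Level of each of the 6 genes (centre of each panel) and of the nearest rows in register on its chromosome (left and right) as log2(CPM + 1); each point is 1 library, degeneration 1 to 3 in red left of wild type 1 to 3 in blue. Wasl, Atp6v1f and Tln1 are counted at 179 to 1652 CPM in degeneration 2 and 3 beside Lmod2, Flnc and Tpm2, while both neighbours of Cavin4 are low there.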

How the data were processed

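RNA of labelled intervertebral discs was sequenced in 6 mouse libraries, 3 per group. The deposited values are raw counts per gene name, made with featureCounts 2.0.1 per the file headers: paired reads with both ends mapped, no chimeric pairs, summed over the exons of each name, with strand ignored. The headers show no option to count multi-mapping reads. The build of the alignment is not given in the sources used here. Bowtie 0.12.2, mm8 and mm9 are named in the submitters' processing notes with no role. Groups were taken from the sample titles; the description of the series names retina instead of disc. A table of the whole series has 12 value columns whose names match no sample label, so its FPKM values were not used.

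CPM was computed from library totals. Rows were intersected with GENCODE M21 exons (bedtools 2.31.1, Python 3.11.15, pandas 2.3.3) on the assumption that reads were placed on GRCm38, in register at 90% or more. Other rows took the name of the 1 gene with at least 80% of the exon bases under them and at least 100 bases, and 13623 rows made 11203 loci. Groups were compared by the quasi-likelihood test of edgeR 4.0.16 under R 4.3.3, after TMM scaling and filterByExpr, with Benjamini-Hochberg adjustment over all rows or loci, threshold 0.05; SE was derived from the test statistic. The test was tried on simulated counts. Alternatives were DESeq2 1.42.0, its size factors, library totals that omit the top 20 rows, tests without the count filter or at a mean of 1 CPM, a replicate block, each library left out, register at 80% and 95%, and, added after seeing the data, both of degeneration 2 and 3 left out.

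The 6 genes and all lists were chosen with earlier results of these data known. Named genes were the 6, located paralogs of them (the ASB family was treated as a list only), the 3 loci nearest to each, and in each list the 3 with the highest mean CPM per kb of covered exon and any that passed with 6 libraries; exceptions are stated, and 1 locus that the rule names is not reported here. Markers named by this rule that are not discussed in the report are given in the closing section.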

Additional observations from a re-analysis of the deposited data

How the results depend on the processing

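All 6 genes stayed in register at thresholds of 80% and 95%, and using only bases on own exons as length moved no level per kb by more than its SD. With all libraries, no setting called any of the 6 genes. The count of genes called ranged from 0 to 6 when 1 library was left out, with 6 only without degeneration 1. Over the same fits the rows called ranged from 0 to 8702 and the loci from 0 to 3286. DESeq2 called 405 rows and 269 loci, against 0 and 0 by edgeR; the cause was not tested. Leaving out degeneration 2 and 3 left 2 rows (those named Txnip and Gm16538, named after their values were seen) and 1 locus (Gm43534), all higher in degeneration 1. It turned the log2 fold change positive for Lmod2 (0.44), Cavin4 (0.29), Asb15 (0.31) and Ppp1r3a (0.25), none of them past the threshold. Deviations of same-numbered libraries from their group means correlated at -0.035, 0.085 and -0.090 (Pearson's r across rows, a description). Since degeneration 1 lies far from degeneration 2 and 3, these values cannot show whether the replicate numbers pair the libraries. With the replicate number as a block, 0 rows, 0 loci and 0 of the 6 genes passed, and the log2 fold changes were -0.80 for Tpm2, -2.37 for Asb15 and -6.28 for Flnc. Without degeneration 2 or without degeneration 3 the log2 fold change of Lmod2 was -0.57 in both fits, against -1.16 with all libraries. The depth limits the values of Lmod2, Cavin4 and Ppp1r3a in degeneration 2 and 3, where 0 to 2 counts do not order the genes.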

Other observations

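Markers of other cell types were also read. Slc34a1, a phosphate transporter of the proximal tubule, had 0, 1081 and 966 CPM in degeneration 1 to 3 and no count in wild type. Egf had 20.5, 2621 and 2285 CPM in degeneration and 9.73 to 17.8 CPM in wild type, and Lrp2 had 1.89, 2829 and 2030.3 CPM in degeneration and at most 0.559 CPM in wild type. Ryr2, the calcium release channel of heart, had 6012, 12.7 and 17.3 CPM in degeneration and 6098 to 7264 CPM in wild type.

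Among skeletal muscle markers, Tnnt1, a slow troponin T, had 77.5, 0.579 and 0.321 CPM in degeneration and 50.1 to 70.5 CPM in wild type. Mybpc2, a myosin-binding protein, had 37.2, 0.290 and 1.28 CPM in degeneration and 32.2 to 54.3 CPM in wild type. Atp2a1, the calcium pump of fast muscle, had 6.30, 18.0 and 17.0 CPM in degeneration and 7.48 to 9.34 CPM in wild type.

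The 4 located notochord and nucleus pulposus markers summed to 281, 132 and 130 CPM in degeneration 1 to 3 and to 263, 197 and 244 CPM in wild type. Cdh2, N-cadherin, which heart muscle also makes, had 281, 5.50 and 5.45 CPM in degeneration and 196 to 262 CPM in wild type. Krt8, a keratin of simple epithelia as well, had 0, 127 and 125 CPM in degeneration and 0.301 to 0.839 CPM in wild type. Noto and Krt19 had no more than 3 counts in any library. Of the disc and cartilage markers, Cnmd had 2.52 to 3.53 CPM in degeneration and 1.40 to 3.49 CPM in wild type, Chad 3.15 to 7.69 and 2.80 to 7.54 CPM, and Col11a2 0.869 to 3.78 and 4.52 to 9.98 CPM, in the same order of groups.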
